A study of Saccharomyces cerevisiae with 60 samples.

Results

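The 39 heat shock proteins and chaperones described here were chosen by gene name: the Hsp70, Hsp90, Hsp40 and small heat shock proteins of budding yeast, their cochaperones, the disaggregase, the main folding factors of mitochondria and the endoplasmic reticulum (ER), and the regulator gene HSF1. Of them 38 were measured among 5524 named genes, each by 1 array row, and CUR1 was not among the named rows. By place of action 26 are cytosolic, 5 mitochondrial and 6 act in the ER, and HSF1 encodes the transcription factor. The cytosolic genes were divided into an Hsp70 system (13 genes), an Hsp90 system (7) and a class of disaggregase, small heat shock proteins and sorting factors (6).

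RNA came from 9 strains of Saccharomyces cerevisiae growing exponentially in rich medium or in medium with copper sulfate, whose concentration is not given in the labels. The strains are S288C, YPS163, M5, M8, M13, M14, M22, M32 and M34, of which S288C is known as the laboratory reference and YPS163 as an oak isolate, while the M strains are known as vineyard isolates. On 54 arrays of 2 colours a strain was compared with a pool, the combined RNA of all 9 strains, with 3 arrays for each strain and medium. On 6 further arrays the copper pool was compared with the rich medium pool. No genetic change to a strain is given in the labels, and whether replicate arrays came from separate cultures is not stated, so a p-value here reflects array-to-array spread, which may be technical. Cultures were measured in bulk, so a change in more cells and a larger change in fewer cells cannot be told apart.

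Chaperones bind unfolded or partly folded proteins. In the cytosol, Hsp40 proteins deliver such proteins to Hsp70, nucleotide exchange factors reset Hsp70, Hsp90 with its cochaperones finishes the folding of selected clients, and Hsp104 pulls proteins out of aggregates. Many of these genes are known to be driven by Hsf1 when proteins unfold and several, among them HSP12 and HSP26, by the general stress factors Msn2 and Msn4, while ER chaperones such as KAR2 are also driven by the unfolded protein response.

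All values below are log2 ratios with the median of each array set to 0. A strain value is strain over pool of the same medium, and a pool value is copper over rich medium. The number of arrays limits their precision. The direction of the deposited ratios is not stated. For strain arrays, channel 1 over channel 2 is likely, since the ratios of the 9 strains to a pool of the same strains should average 1: over the 200 rows used, that average had a median absolute log2 of 0.11 (copper) and 0.12 (rich medium) in this order, and of 0.38 and 0.39 in the reverse one. For pool arrays the reverse order is likely, because the metallothionein gene CUP1-1, which copper is known to induce, then lay between 3.45 and 8.92 on all 6 arrays. If either order were the other way round, the pool or strain directions given below would turn. Of 352 pairs of strain arrays of different strains, with the same medium and channel order, 49 correlated below -0.3 (lowest -0.60). After subtraction of the local median of neighbouring spots from each array, 0 pairs did (lowest -0.26). Values with this subtraction are called position corrected, and they stand beside the centred values wherever a call differs.

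In the pools, 13 of the 38 chaperone genes rose in copper medium and 0 fell (limma, Benjamini-Hochberg adjusted p under 0.05 over 5524 genes). Over all genes 1.18% were called higher and 0.235% lower. The genes that rose were SSA1, SSA2, SSA4, YDJ1, SIS1, HSP82, CPR6, HSP104, HSP12, SSC1, HSP10, KAR2 and ERO1, so each compartment had some. Of the 38, 13 lay above 0 on all 6 arrays, against 2.03% of all genes. The median of the 38 genes was 0.53, with 31 above 0, against -0.04 over all genes, of which 44.1% were above 0. Position corrected, 15 rose and 0 fell, against 1.34% and 0.253% of all genes, 30 were fitted above 0 (43.2% of all genes), and 17 lay above 0 and 0 below on all 6 arrays (2.77% and 2.44%). HSC82, STI1, HSP26 and MDJ1 were then called as well, and YDJ1 and ERO1 were not. The share called was thus 2 of 5 mitochondrial genes centred and 3 of 5 position corrected, and 2 of 6 and 1 of 6 in the ER.

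**Figure D1:**
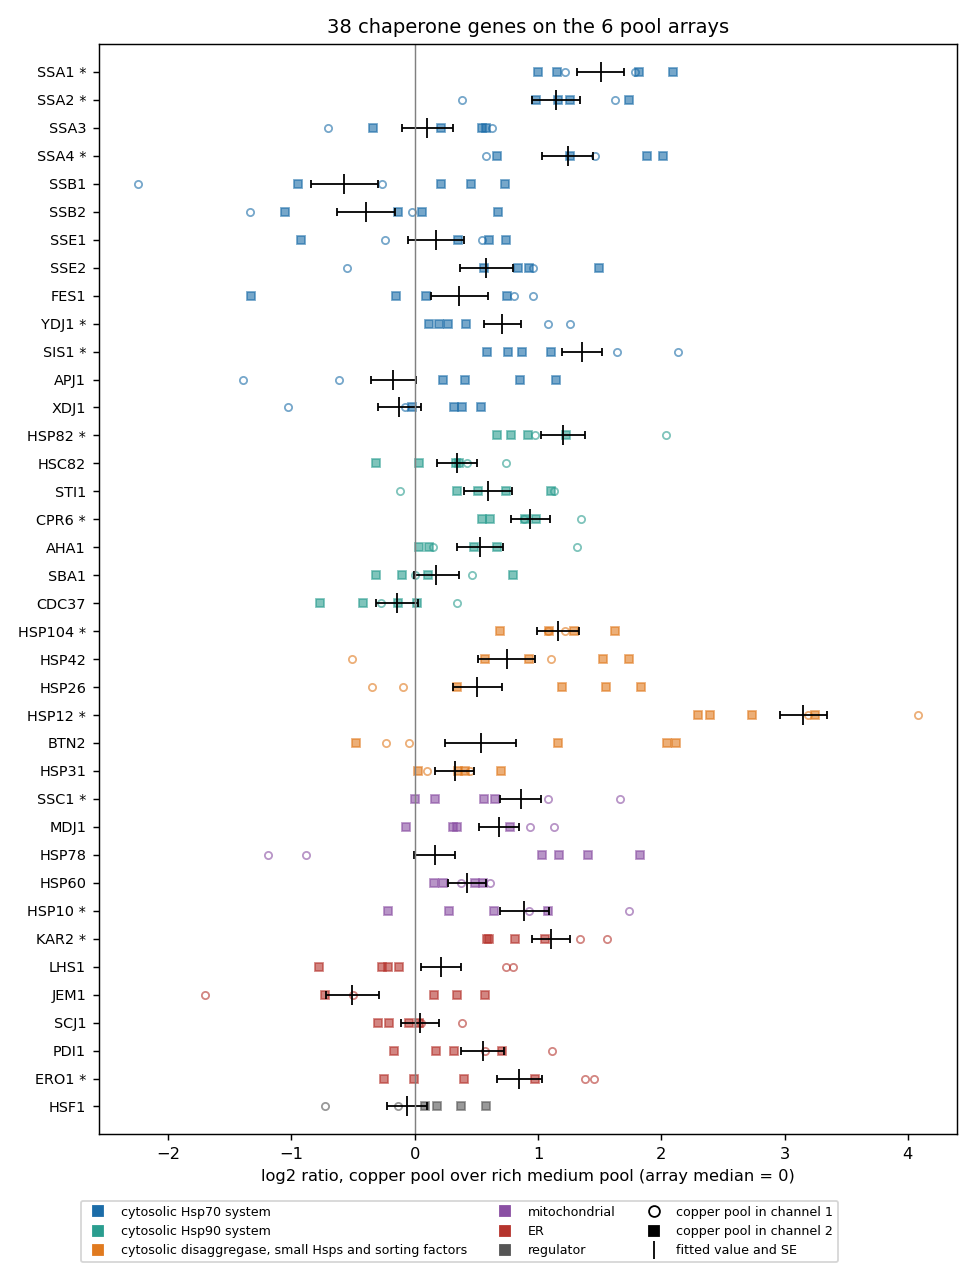
Log2 ratio of copper over rich medium pool for the 38 measured chaperone genes on each of the 6 pool arrays (x axis), with genes listed by class (y axis). Open circles mark the 2 arrays with the copper pool in channel 1, filled squares the 4 with it in channel 2, vertical ticks the fitted value with its SE, and asterisks the 13 genes called. HSP12 lies farthest to the right, between 2.30 and 4.09, and the 2 open circles of HSP78 lie below 0 while its 4 squares lie above.

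HSP12, which encodes a small membrane-associated heat shock protein, moved most among the members. Its log2 ratios on pool arrays 1 to 6 were 3.19, 2.30, 4.09, 3.25, 2.73 and 2.39. All lay far above 0, and the fit gave 3.15 ± 0.19 (SE, n = 6 arrays), an 8.89-fold rise with limma adjusted p = 1.78e-06. This call was kept in all 14 settings tried, including each array left out in turn.

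In the Hsp70 system 5 of 13 genes rose and 0 fell, with a class median of 0.36. SSA1, encoding a cytosolic Hsp70 present in all conditions, had 1.22, 1.15, 1.79, 2.10, 1.82 and 1.00 on arrays 1 to 6, a fitted 1.51 ± 0.19 (2.85-fold, adjusted p = 0.00101). SSA2, its near-identical copy, had 0.38, 1.74, 1.63, 1.16, 1.26 and 0.98, a fitted 1.15 ± 0.19 (adjusted p = 0.00938). SSA4, a heat-induced Hsp70 gene that is nearly silent without stress, had 1.47, 1.89, 0.58, 0.67, 2.01 and 1.26, a fitted 1.24 ± 0.21 (adjusted p = 0.00938). All 3 genes lay above 0 on every array. SSA3, the other stress-induced gene of this family, did not pass, with values from -0.71 to 0.63 and a fitted 0.10 ± 0.21 (adjusted p = 0.832). SSA1 and SSA2 are so alike that their transcripts can share hybridization, so they may not be separate measurements.

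The ribosome-associated Hsp70 genes SSB1 and SSB2, which help nascent chains to fold, gave -0.57 ± 0.27 and -0.40 ± 0.24 without passing the test (adjusted p = 0.351 and 0.456). SSB1 ran from -2.25 to 0.73 and SSB2 from -1.34 to 0.68, so their arrays lay on both sides of 0. Position corrected, SSB1 had -0.96 ± 0.22 and again did not pass (limma adjusted p = 0.0626). Its mean was then -2.01 with the copper pool in channel 1 and 0.10 in channel 2, so its direction depended on the channel. The nucleotide exchange factors were likewise not called: SSE1 had 0.17 ± 0.23, SSE2 0.58 ± 0.21 and FES1 0.36 ± 0.23 (adjusted p = 0.747, 0.229 and 0.485). Among the Hsp40 genes, whose products bring clients to Hsp70, SIS1 had 2.14, 0.87, 1.64, 0.75, 1.11 and 0.58 and a fitted 1.36 ± 0.16 (2.56-fold, adjusted p = 6.27e-04). YDJ1, the abundant general Hsp40 gene, had 1.08, 0.12, 1.26, 0.27, 0.42 and 0.20 and a fitted 0.71 ± 0.15 (adjusted p = 0.0380, position corrected 0.0579). SIS1 and YDJ1 were both highest on arrays 1 and 3, those with the copper pool in channel 1. The less abundant Hsp40 genes APJ1 (-0.17 ± 0.18) and XDJ1 (-0.12 ± 0.18) did not pass (adjusted p = 0.675 and 0.765).

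The Hsp90 system had a median of 0.53, with 2 of 7 genes called higher and 0 lower. HSP82, the stress-induced Hsp90 gene, had 0.98, 0.78, 2.04, 1.23, 0.92 and 0.67, a fitted 1.20 ± 0.18 (2.30-fold, adjusted p = 0.00365). HSC82, the constitutive Hsp90 gene, had 0.43, 0.03, 0.74, -0.32, 0.36 and 0.33, a fitted 0.34 ± 0.16 (adjusted p = 0.355). The HSP82 values exceeded those of HSC82 on each array. CPR6, a prolyl isomerase that binds Hsp90, rose by 0.94 ± 0.16 (adjusted p = 0.00938), from 0.55 to 1.35 over the arrays. STI1, which links Hsp70 to Hsp90, had 0.59 ± 0.19, and AHA1, which stimulates the Hsp90 ATPase, 0.53 ± 0.19 (adjusted p = 0.186 and 0.224). The p23 homologue gene SBA1 (0.18 ± 0.18) and the kinase-specific cochaperone gene CDC37 (-0.14 ± 0.17) lay near 0 (adjusted p = 0.669 and 0.713). Position corrected, HSC82 (0.59, adjusted p = 0.0205) and STI1 (0.85, adjusted p = 0.0384) passed too, which brought the count to 4 of 7.

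**Figure D2:**
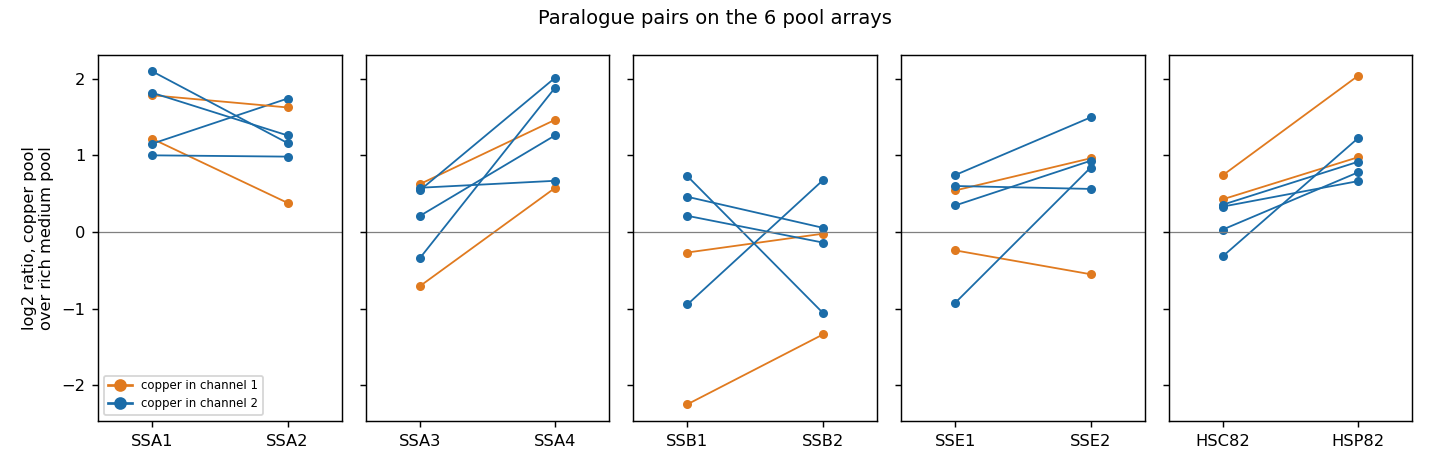
Log2 ratio of copper over rich medium pool (y axis) for 5 pairs of related chaperone genes, with 1 line for each of the 6 pool arrays, orange where the copper pool was in channel 1 and blue where it was in channel 2. Every line rises from SSA3 to SSA4 and from HSC82 to HSP82, while lines of the other 3 pairs run both ways.

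For 5 pairs of related genes the difference in log2 ratio was tested over the 6 pool arrays with an exact permutation test (sign changes, two-sided), where the smallest p possible is 0.0312. SSA4 exceeded SSA3 by 1.16 ± 0.71 (SD, n = 6) on 6 of 6 arrays, and HSP82 exceeded HSC82 by 0.84 ± 0.48 on 6 of 6 (exact p = 0.0312 each, adjusted over the 5 pairs 0.0781). SSE2 minus SSE1 was 0.53 ± 0.72, SSA1 minus SSA2 0.32 ± 0.57 and SSB1 minus SSB2 -0.04 ± 1.18 (exact p = 0.125, 0.219 and 0.969). With 6 arrays and 5 pairs an adjusted p under 0.05 needs at least 4 pairs at the smallest p, so a pair that differed on 6 of 6 arrays could not pass alone, and the adjusted values say nothing about these differences. Position corrected, SSA4 and HSP82 again exceeded their partners on 6 of 6 arrays, by 1.27 ± 0.41 and 0.53 ± 0.28. Related genes can share hybridization, and its extent was not tested.

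Among the disaggregase, small heat shock proteins and sorting factors 2 of 6 genes passed, with a class median of 0.64. HSP104, the disaggregase gene, was even across arrays with 1.08, 1.63, 1.22, 0.69, 1.29 and 1.09, and rose by 1.16 ± 0.17 (2.24-fold, adjusted p = 0.00331). The other called gene was HSP12. HSP26 and HSP42, which encode the small heat shock proteins that co-aggregate with unfolded proteins, had 0.51 ± 0.20 and 0.74 ± 0.23 (adjusted p = 0.270 and 0.156). HSP26 passed position corrected (0.64, adjusted p = 0.0220). HSP31, encoding a stress protein with methylglyoxalase activity, had 0.32 ± 0.16 with all 6 arrays above 0 (adjusted p = 0.378).

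BTN2, whose product sorts misfolded proteins into deposits, had -0.24, 2.05, -0.05, -0.48, 2.12 and 1.16 (fitted 0.53 ± 0.29, adjusted p = 0.425). HSP26 had -0.09, 1.83, -0.34, 0.35, 1.55 and 1.20. With centred values, arrays 2, 5 and 6 were the highest for both genes. Position corrected, BTN2 kept this split, with 1.88, 2.07 and 1.07 on arrays 2, 5 and 6 and -0.17 to 0.24 on the others. HSP26 did not, since array 4 stood at 1.15 beside 1.14 on array 6, and only arrays 1 and 3, with the copper pool in channel 1, were low (0.03 and -0.14). CUP1-1 was split like BTN2, with 8.92, 6.69 and 8.34 on arrays 2, 5 and 6 against 3.72, 4.09 and 3.45 on arrays 1, 3 and 4. What separates these arrays was not tested.

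Of the mitochondrial chaperone genes 2 of 5 rose, with a median of 0.68. SSC1, the Hsp70 gene of the mitochondrial matrix and import motor, had 1.08, -0.00, 1.67, 0.56, 0.65 and 0.16, a fitted 0.86 ± 0.17 (adjusted p = 0.0251). HSP10, the cochaperonin gene, had 0.93, -0.22, 1.73, 0.64, 1.08 and 0.28, a fitted 0.89 ± 0.20 (adjusted p = 0.0473). HSP60, its chaperonin partner gene, had 0.61, 0.49, 0.38, 0.23, 0.56 and 0.15, a fitted 0.43 ± 0.15, above 0 on every array but not past the threshold (adjusted p = 0.229). SSC1 and HSP10 were highest on array 3 and lowest on array 2. MDJ1, the Hsp40 gene of the matrix, had 0.68 ± 0.17 (adjusted p = 0.0678, position corrected 0.0101). HSP78, the matrix disaggregase gene, had -1.19 and -0.88 with the copper pool in channel 1 and 1.03 to 1.82 in channel 2. Its channel effect of 2.39 exceeded its fitted copper effect of 0.16 ± 0.17, so its direction depended on the channel.

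In the ER 2 of 6 genes rose, with a median of 0.38. KAR2, the ER Hsp70 gene, had 1.34, 1.06, 1.56, 0.60, 0.81 and 0.59 and rose by 1.11 ± 0.16 (2.15-fold, adjusted p = 0.00283). ERO1, the oxidase gene that reoxidizes protein disulfide isomerase, had 1.45, -0.25, 1.38, -0.01, 0.97 and 0.40 and a fitted 0.85 ± 0.19 (adjusted p = 0.0420, position corrected 0.0909). PDI1, the disulfide isomerase gene, had 0.55 ± 0.17 (adjusted p = 0.165). KAR2 thus stood above 0 on all arrays, and ERO1 on 4 of 6. LHS1, the exchange factor gene for Kar2, had 0.21 ± 0.16, and the ER Hsp40 genes SCJ1 and JEM1 had 0.04 ± 0.15 and -0.51 ± 0.21 (adjusted p = 0.547, 0.910 and 0.296). HSF1 itself had -0.06 ± 0.16 (adjusted p = 0.876), with arrays from -0.72 to 0.58.

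The compartments overlapped. On each pool array the median of the 26 cytosolic genes was above the median of all genes, by 0.39 to 0.80, and that of the 5 mitochondrial genes was too, by 0.01 to 0.93. The ER median was above it on 4 of 6 arrays, from -0.20 to 0.94. The cytosolic median exceeded the ER median on 5 of 6 arrays (6 of 6 position corrected) and the mitochondrial median on 2 of 6. The members are not replicates and no test was made of these medians. Position corrected the medians of the fitted values were 0.61, 0.63 and 0.16 in cytosol, mitochondria and ER.

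Channel order touched this comparison. Only 2 arrays carry the copper pool in channel 1, and a channel effect was called for 5 of 38 chaperone genes (APJ1, HSP26, HSP78, LHS1 and SIS1) against 17.2% of all genes (8 and 20.5% position corrected). The 8 were SSB1, APJ1, HSC82, SBA1, HSP26, HSP78, HSP10 and JEM1. Of these HSC82, HSP26 and HSP10 were called higher in copper position corrected. With the copper pool in channel 1 and in channel 2 their means were 0.91 and 0.26 (HSC82), -0.06 and 1.33 (HSP26) and 1.39 and 0.30 (HSP10). Without pool array 3 only 3 chaperone genes rose, and without array 1 there were 7. Without array 3 the adjusted p was 0.0511 for SSA1, 0.328 for SSA2, 0.190 for HSP82 and 0.110 for HSP104 and for KAR2. Without array 1 it was 0.187 for SSA4. SIS1 lost its call without the channel effect in the model (adjusted p = 0.0776).

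A further list of 62 measured chaperones and folding factors gives the background of the folding machinery. It holds the chaperonin CCT, prefoldin, ribosome-bound cochaperones, further Hsp90, mitochondrial and ER factors, the cyclophilin gene CPR1 and 7 further heat shock genes. Of them 1 rose and 0 fell, with a median of -0.04, as over all genes. The gene was MBF1, a transcriptional coactivator induced by heat, with 0.82 ± 0.17 and all 6 arrays above 0 (adjusted p = 0.0347). Its call held in 7 of 14 settings, and it was lost with scaling, without a channel effect and without array 1, 2, 3, 5 or 6 (adjusted p up to 0.635). Position corrected, CPR1, the cytosolic cyclophilin gene (0.81, adjusted p = 0.0230), and PIM1, the protease gene of the mitochondrial matrix (0.54, adjusted p = 0.0380), rose as well. The 14 chaperonin and prefoldin genes had a median of -0.12 and the 12 further ER genes -0.03, and 0 of either passed. The 10 further genes of the cytosolic Hsp70 system, mostly cochaperones, stood at -0.25. The 7 further Hsp90 cochaperone genes stood at -0.04 and the 11 further mitochondrial genes at -0.01. The 7 further heat shock genes, MBF1 among them, lay higher, with a median of 0.43 and 5 of 7 above 0 (0.36 and 6 of 7 position corrected). HAC1, the transcription factor gene of the unfolded protein response, had -0.13 ± 0.17 (adjusted p = 0.734), though its product is known to be controlled by splicing rather than by RNA level.

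Among the 9 strains in copper, 3 of 38 chaperone genes differed by the F-test over strains: SIS1, BTN2 and KAR2 (limma adjusted p = 0.0324, 0.0124 and 0.00964). Over all genes 1.45% passed. Position corrected, 7 of 38 passed against 3.67% of all genes: BTN2 (adjusted p = 9.86e-05), HSP42 (0.00237), ERO1 (0.00344), KAR2 (0.00482), HSP12 (0.0376), SIS1 (0.0376) and HSP104 (0.0488). Of the 62 further chaperones 0 passed centred and 1 position corrected, HSP30, a plasma membrane heat shock protein gene (adjusted p = 0.0440). In rich medium 0 of 38 passed, centred or position corrected, against 1.63% and 2.72% of all genes. There 1 chaperone gene had an unadjusted p under 0.05 (2 position corrected), against 9 (13 position corrected) in copper, where 5.9% (11.5%) of all genes did and in rich medium 11.9% (9.05%). Position corrected, chaperone genes had a median range over the strains of 1.00 in copper, where all genes had 0.53, and of 0.57 in rich medium, where all genes had 0.50. With centred values the ranges were 0.99 and 0.73 in copper and 0.91 and 0.91 in rich medium. The range of chaperone genes then differed little between the media, and it exceeded that of all genes in copper only.

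**Figure D3:**
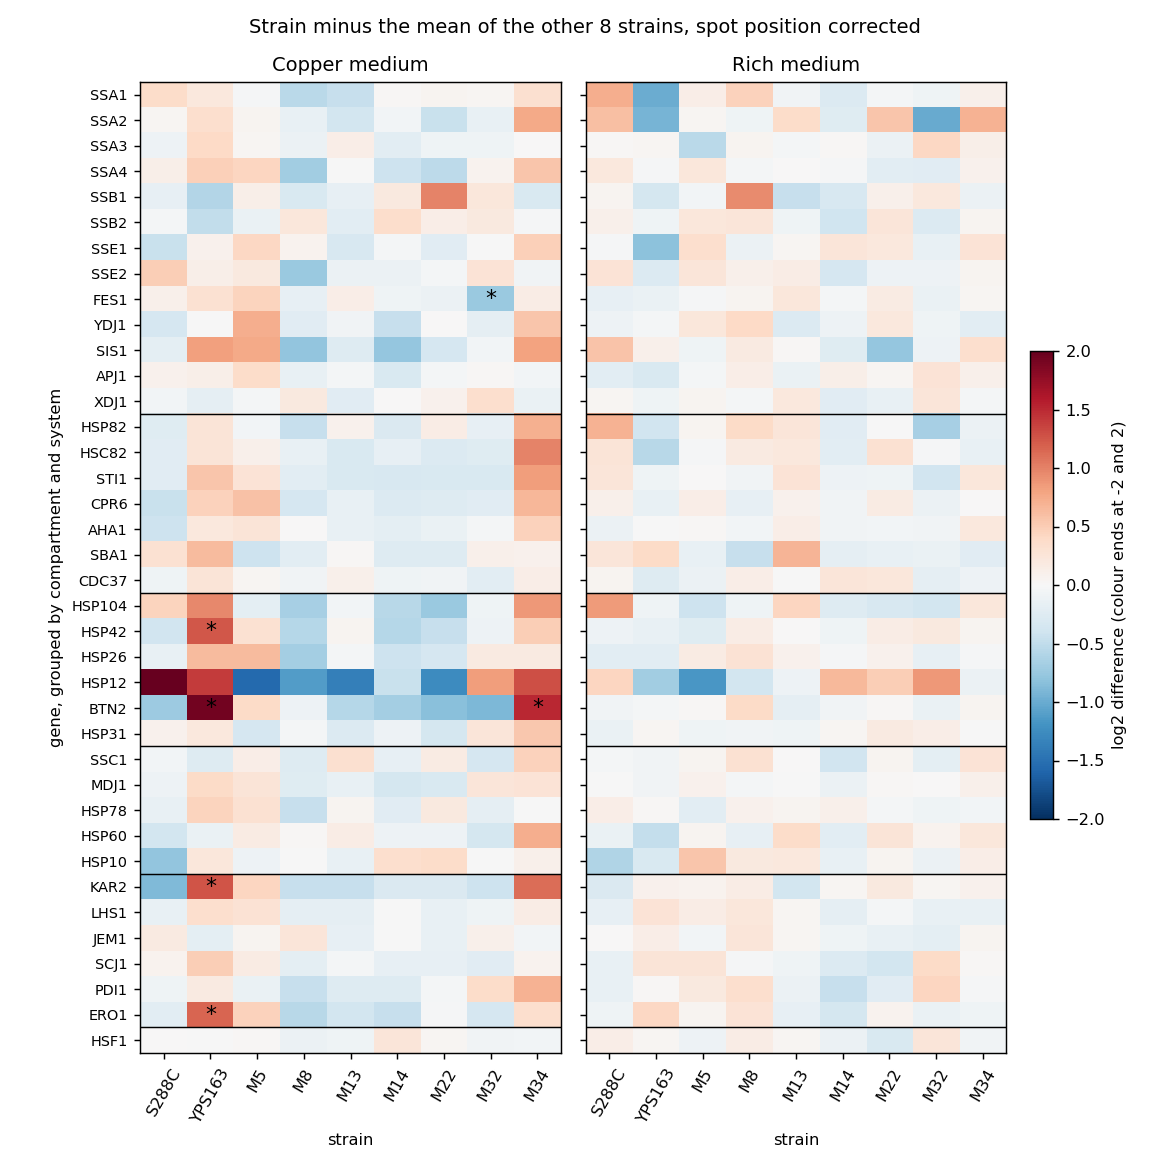
Log2 difference of each strain from the mean of the other 8 (colour) for the 38 chaperone genes (rows) in copper (left) and rich medium (right), position corrected, with asterisks where the limma adjusted p was under 0.05. The 6 asterisks lie in copper, 4 of them in YPS163, 1 in M34 and 1 (FES1, lower) in M32.

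KAR2 had the lowest adjusted p of the F-test in copper with centred values, and BTN2 position corrected. The centred BTN2 values in copper were 0.99, 1.54 and 0.67 in YPS163 and 2.41, -0.06 and 0.63 in M34. In M32 they were -2.45, -1.02 and -0.17 and in M13 -1.36, -0.70 and -0.93. All 3 YPS163 arrays lay above every array of the other strains except M34 replicate 1, the 1 high array of M34. Against the mean of the other 8 strains the YPS163 difference was 1.69 ± 0.41 (SE, limma adjusted p = 0.0548). Position corrected YPS163 was higher by 1.93 ± 0.34 (3.80-fold, adjusted p = 7.03e-04). The SE of each strain difference here rests on a spread pooled over all 54 strain arrays, not on the 3 arrays of that strain alone. The M34 difference was 1.61 ± 0.41 (adjusted p = 0.101, with 0.181% of all genes called higher in M34), and position corrected 1.51 ± 0.34 (adjusted p = 0.0206, where 0.344% of all genes were called higher). Position corrected, the YPS163 call was kept without any 1 of its 3 arrays (adjusted p from 0.00565 to 0.0226). Over the 40 planned settings, most of them with centred values, BTN2 passed in YPS163 in 11 (limma adjusted p up to 0.460) and in M34 in 3. In rich medium the BTN2 differences were -0.01 in YPS163 and 0.04 in M34.

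KAR2 was highest in YPS163, with 0.70, -0.01 and 1.93 in copper, and in M34, with 0.95, 0.21 and 1.21. It was lowest in S288C, with -1.01, -0.85 and -1.21. The S288C arrays lay below every array of YPS163, M5 and M34. YPS163 differed from the other strains by 1.15 ± 0.30 (adjusted p = 0.0747, position corrected 1.25 and 0.0245), M34 by 1.05 ± 0.30 (adjusted p = 0.225) and S288C by -0.99 ± 0.30 (adjusted p = 0.106). In rich medium these differences were 0.26, 0.29 and -0.41. The YPS163 difference of KAR2 in copper passed in 7 of 40 planned settings.

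ERO1 and HSP42 were the chaperone genes called in a single strain with centred values, both in YPS163 in copper. The share of all genes called higher there was 0.217%, or 0.525% position corrected. Over the tests of all 9 strains the share was 0.286% in copper and 0.245% in rich medium (position corrected 0.686% and 0.43%). In rich medium 0 chaperone genes were called in any strain, in both processings. ERO1 had 1.71, 0.30 and 2.04 in YPS163, a difference of 1.55 ± 0.37 (adjusted p = 0.0435), and position corrected 1.16 ± 0.22 (adjusted p = 0.00157). HSP42 had 1.29, 0.47 and 1.02, a difference of 1.15 ± 0.25 (2.22-fold, adjusted p = 0.0211), and position corrected 1.24 ± 0.23 (adjusted p = 0.00139). All 3 YPS163 arrays of HSP42 were above 0, and of the other strains only M34 replicate 1 (0.62) and M5 replicate 1 (0.47) reached the lowest of them. In rich medium YPS163 stood at 0.45 for ERO1 and 0.10 for HSP42. The ERO1 value there rested on 1 high array, with -0.51, 2.13 and -0.58 on the 3 arrays. Without YPS163 copper replicate 1 the centred calls of ERO1 (adjusted p = 0.816) and HSP42 (0.947) were lost, as they were without replicate 3 (0.593 and 0.131). Position corrected, HSP42 lost its call without replicate 1 (adjusted p = 0.124) and ERO1 without replicate 3 (adjusted p = 0.190). Over 40 planned settings the HSP42 call held in 34 and the ERO1 call in 19. ERO1 was also lost without centring, without a channel effect and without single arrays of other strains, such as M13 replicate 1 (adjusted p = 0.0519).

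**Figure D4:**
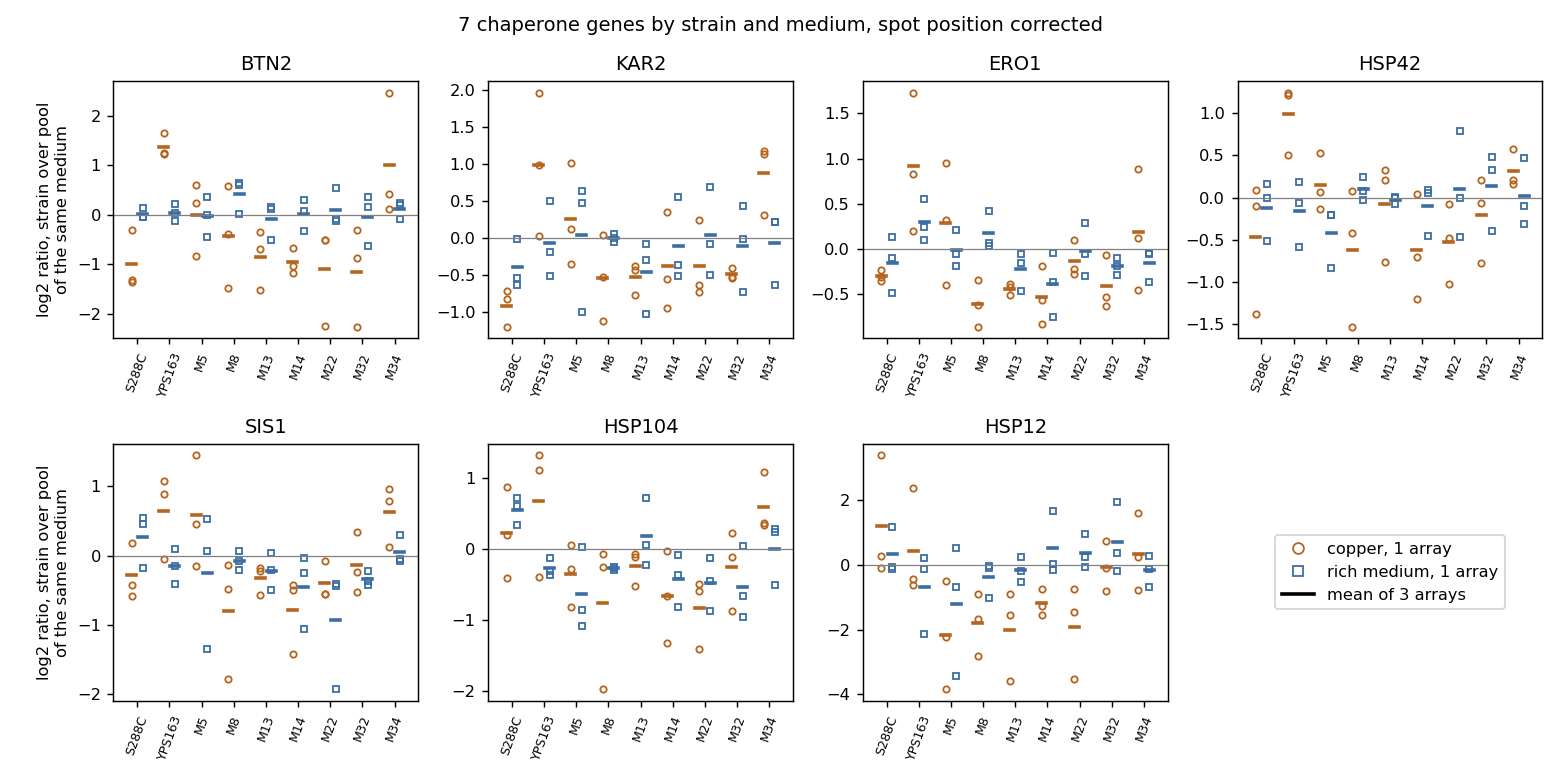
Log2 ratio of strain over pool of the same medium (y axis), position corrected, for 7 chaperone genes in each of the 9 strains (x axis). Circles are single arrays in copper, squares single arrays in rich medium and bars the mean of 3 arrays. The YPS163 bars in copper are the highest of the 9 for BTN2, KAR2, ERO1, HSP42, SIS1 and HSP104, and the S288C bar is the highest for HSP12.

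SIS1, HSP104 and HSP12 varied over strains in the F-test, HSP104 and HSP12 only position corrected, without a call in any single strain. SIS1 in copper was 1.58, -0.06 and 1.56 in YPS163 and 1.27, 0.48 and 0.71 in M34, against -1.32, -0.49 and -0.76 in M14. HSP104, position corrected, was 1.31, -0.40 and 1.11 in YPS163 and 1.08, 0.36 and 0.33 in M34, against -1.41, -0.60 and -0.50 in M22. In YPS163, replicate 2 of both genes lay below 0 and apart from the other replicates. With centred values this array was also the lowest YPS163 copper array for KAR2, ERO1 and HSP42, but the highest for BTN2. HSP12 had the widest range, 3.24 between S288C and M13 (adjusted p = 0.186), or position corrected 3.38 between S288C and M5 (adjusted p = 0.0376). Its copper arrays were -0.20, 3.39 and 0.25 in S288C and -3.67, -1.69 and -0.92 in M13, and 1 of the 3 S288C arrays lay far above the other two. FES1, the exchange factor gene, had a difference of -0.84 ± 0.23 in M32 in copper (adjusted p = 0.113, with 0.0905% of all genes called lower there). Position corrected it was called lower, at -0.74 ± 0.18 (adjusted p = 0.0280, with 0.67% of all genes), and its M32 arrays were -1.63, -0.32 and -0.24. FES1 passed in M32 in 4 of 40 planned settings.

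Across the list, strains separated in copper into those with most chaperone genes above and those with most below the mean of the others. In M34 32 of 38 genes were above it (median 0.46), in YPS163 30 (median 0.29) and in M5 26 (median 0.16). In M8 there were 7 (median -0.19), in M13 10 (-0.19), in M14 11 (-0.16), in M22 12 (-0.16), in S288C 15 (-0.13) and in M32 16 (-0.07). Over all genes the median lay between -0.04 and 0.03 in every strain, with 44.8% to 55.4% of genes above the mean of the others. Of the 62 further chaperones 43 were above it in M34 (median 0.14), 35 in YPS163 and 28 in M5. Their lowest count was 22, in M14. Position corrected, 42 of the 62 were above it in M34, 31 in YPS163 and 41 in M5. The lean in M34 was thus not particular to the 38 genes, though smaller outside them. Position corrected, the same held for M5. The position-corrected counts of the 38 genes were 30 in M34, 30 in YPS163 and 28 in M5, against 6 in M8 and in M14. Of all genes 48.6% to 53.0% were then above. In rich medium the centred counts ran from 11 in M32 to 27 in M13, and YPS163 had 17 and M34 26. Position corrected they ran there from 8 in M14 to 24 in M8, with 12 in YPS163 and 23 in M34. M14 was thus low in both media. The share of all genes above in rich medium was 45.8% to 56.6% (47.8% to 50.7% position corrected). These counts describe genes that share arrays and were not tested.

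The class of disaggregase, small heat shock proteins and sorting factors spread most. Position corrected, its median in copper was 1.10 in YPS163 and 0.70 in M34, against -0.61 in M8, -0.60 in M22 and -0.50 in M14. The Hsp90 system stood at 0.66 in M34 and 0.26 in YPS163, with 7 of 7 genes above the other strains in both. ER genes stood at 0.41 in YPS163 and 0.24 in M34, mitochondrial genes at 0.23 and 0.28, and the Hsp70 system at 0.12 and 0.14. In rich medium the position-corrected class medians lay between -0.22 and 0.24. With centred values they reached 0.56 (disaggregase class, M8) and -0.45 (Hsp90 system, M32), as large as many values in copper.

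**Figure D5:**
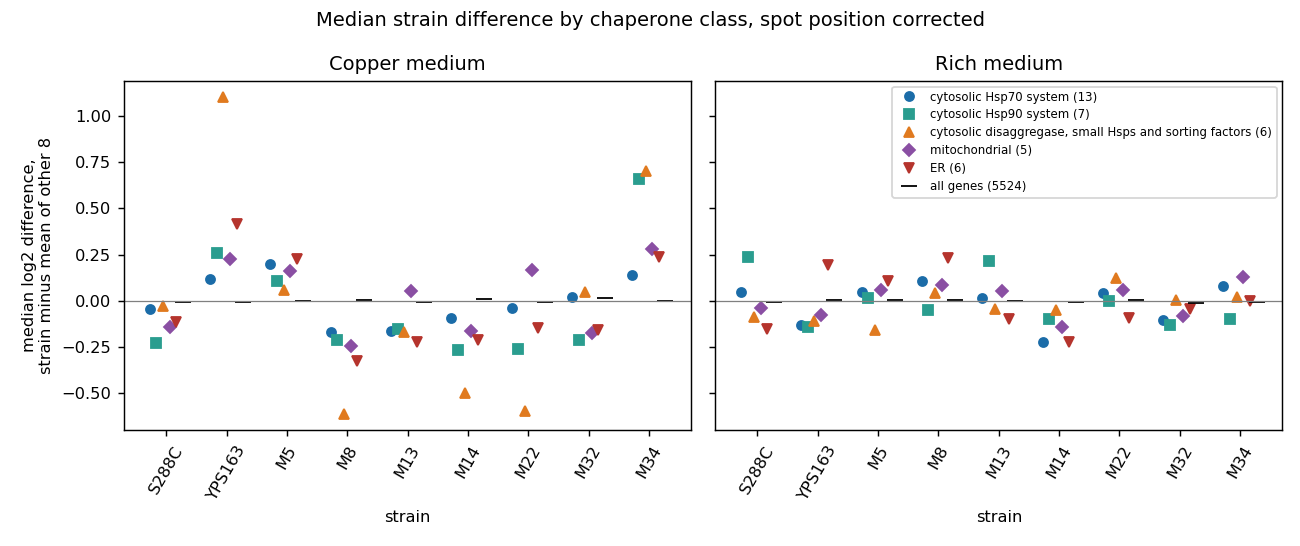
Median log2 difference of each strain from the mean of the other 8 (y axis) for 5 classes of chaperone genes and for all genes (symbols, number of genes in brackets), in copper (left) and rich medium (right), position corrected. In copper the medians run from -0.61 to 1.10, and in rich medium from -0.22 to 0.24.

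An F-test for interaction asked whether strains respond to copper in different ways, and 0 of 38 chaperone genes and 0% of all genes passed it. At an unadjusted p under 0.05 there were 4 of 38 chaperone genes and 4.72% of all genes (3 and 1.52% position corrected). The different calls in copper and in rich medium are therefore not shown to differ from each other. Adding the pool change to each strain's shift between media gives the copper response strain by strain, as a description from 60 arrays. Each value holds the same pool change, so its sign is largely set by the 6 pool arrays and only the order of the strains is described. Each strain's shift rests on 3 arrays in each medium, the values are centred, and no spread is given. For HSP12 the response was 4.13 in YPS163, 3.97 in S288C and 3.38 in M34, and 0.55 in M22, the lowest. The YPS163 arrays of HSP12 were far apart, with -0.45, -0.57 and 2.33 in copper and -2.72, 1.43 and -0.31 in rich medium. Its first place therefore depends on single arrays. For SIS1 the response ran from 0.72 in M14 to 2.93 in YPS163, for KAR2 from 0.48 in M8 to 1.79 in YPS163, and for SSA1 from 0.63 in M22 to 2.83 in YPS163. For BTN2 it was highest in YPS163 (1.61) and M34 (1.49) and lowest in M8 (-0.74).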

How the data were processed

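The authors deposited 1 log2 ratio of both channels for each of 6144 rows and 60 arrays. Per the labels, hot phenol-chloroform RNA was reverse transcribed with amino-allyl dUTP, coupled to Cy3 or Cy5, scanned with a GenePix 4000A and read with GenePix 4.0, with bad spots marked. The dye of each channel, the direction of the ratio and any normalization: not given in the sources used here. Turned back from log2, 100% of ratios under 10 had 3 decimals (tolerance 0.00001). The medians of the arrays ran from -0.77 to 1.16 and median absolute deviations from 0.15 to 0.83, so each array was centred on its median here.

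Names came from the platform annotation: 5541 rows had 1 gene, 5536 of them matched to R64, and 603 had none. Rows of 17 genes were averaged. limma 3.58.1 in R 4.3.3 fitted 18 group means with a channel effect on 54 strain arrays, and a mean with a channel effect on 6 pool arrays. Tests were moderated, with Benjamini-Hochberg adjustment over 5524 genes at 0.05. They were also run on simulated data with independent noise. Such data lack the position trends and the likeness of same-numbered replicates, so error rates on these arrays were not tested. Python 3.11.15 prepared the values. The running median used 15 by 15 spots, with rows laid out as 16 blocks of 16 by 24 spots, an inferred layout. Every member is named, with the further chaperones that passed in the pools or in the F-test over strains. The members, lists and alternatives were chosen with earlier results of these data known, and the tests of paralogue pairs and the position-corrected omissions after the values were seen. No sequences were used here.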

Additional observations from a re-analysis of the deposited data

How the results depend on the processing

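Of 13 chaperone genes that rose in the pools, HSP12 passed in all 14 planned settings, SSA1, SSA2, HSP104 and SIS1 in 13, SSA4, HSP82 and KAR2 in 12, CPR6 in 10, SSC1 and HSP10 in 8, and YDJ1 and ERO1 in 6. No call changed sign in any setting. The cytosolic median (0.53) ran from 0.42 to 0.66 and the mitochondrial (0.68) from 0.57 to 0.81. The ER median (0.38) ran from 0.145 to 0.51, and from 0.08 to 0.24 with the local median subtracted and an array left out. All 3 moved by less than the SD between arrays. For the ER that SD was 0.44, more than the median itself, so there this limit could not show a loss. The count of 13 became 7 with arrays scaled to an equal spread, 5 without a channel effect and, with 1 pool array left out, 3 (array 3) to 13 (7 without array 1). The 78 genes called became 31 with scaling, 21 without a channel effect and 15 to 89 with an array left out (31 without array 1, 15 without array 3, 41 without array 5). With the local median subtracted as well, settings added after seeing the data, leaving out an array gave 4 to 19 chaperone genes higher (4 without array 3), 0 to 1 lower (1 without array 1) and 22 to 123 genes (49 without array 2, 22 without array 3, 123 without array 4).

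Over strains in copper, the 80 genes and 3 chaperone genes called became 240 and 8 with scaling, 203 and 7 with the local median subtracted, 172 and 6 with centring in 16 blocks, and 143 genes with only the copper arrays. Leaving out arrays gave 18 to 83 genes and 0 to 4 chaperone genes: 18 and 0 without replicate 1 of every strain, 51 and 1 without replicate 3. In copper the arrays with the strain in channel 2 were exactly those of replicate 1, so channel and replicate 1 cannot be told apart there. Without replicate 1 every copper array had the same channel order. In rich medium only M5 replicate 3 shared the channel order of replicate 1. With the local median subtracted, leaving out arrays gave 73 to 222 genes and 1 to 7 chaperone genes: 1, 6 and 1 without replicate 1, 2 and 3 of every strain, and 190, 222 and 192 genes with 5, 7 and 4 chaperone genes without YPS163 copper replicate 1, 2 and 3. KAR2 passed in 38 of 40 planned settings, BTN2 in 36 and SIS1 in 27. BTN2 was lost without YPS163 replicate 2, without replicate 1 or 2 of every strain and with only the copper arrays, and KAR2 without replicate 1 or 3 of every strain. In rich medium 90 genes became 57 with scaling, 150 with the local median subtracted, 152 in blocks, 50 with only the rich medium arrays and 24 to 176 with arrays left out (70 without S288C replicate 1), 58 to 101 with the local median too. There 0 chaperone genes passed in the planned settings and 1 in an added one, without replicate 1 of every strain. The interaction gave 0 to 1 genes, 0 to 2 in added settings, and 0 chaperone genes in all.

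Calls of a chaperone gene in 1 strain in copper, 2 as reported, became 1 without centring, 4 with scaling, 0 without a channel effect, 6 with the local median subtracted, 7 in blocks, 0 to 6 with arrays left out and 1 to 8 in added settings (4, 8 and 1 without replicate 1, 2 and 3 of every strain, 4, 7 and 6 without YPS163 copper replicate 1, 2 and 3). In rich medium 0 became 2 without M32 replicate 2 or M5 replicate 3. The replicate block gave 4 such calls in copper. Arrays of different strains with the same replicate number were partly alike in their deviations from the group means. Of 216 such pairs 148 correlated above 0.1, with a median of 0.22 and a lowest of -0.63. Over 432 pairs with different numbers the median was -0.11. In copper replicate 1 also had its own channel order, so a shared replicate and a shared channel cannot be told apart there. The main fit has a channel effect but no replicate term. The causes of the shifts between settings were not tested.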
